A study of Mus musculus with 20 samples.

Results

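The 10 mature neutrophil genes S100a8, S100a9, Csf3r, Cxcr2, Fpr1, Fpr2, Mmp9, Padi4, Ncf1 and Retnlg were followed in whole blood on single-colour Agilent mouse arrays, which carry probes for 31093 named genes. They were taken by name: every probe other than a control whose gene name is one of the 10 was used, which gave 11 probes of 39429, with a pair of probes for Padi4 and 1 probe for each other gene. All 11 passed the filters on dim and unvarying probes that left 18587 probes, called features here, of 15749 genes for testing. The blood came from male littermate mice aged 8 to 10 weeks, either C57BL/6 (WT) or B6.129P2-Il10tm1Cgn/J (Il10-/-), which carry a targeted Il10 allele and are used as a model of inflammatory bowel disease. Each genotype received whole-body X-rays of 7 Gy or a sham exposure of 0 Gy, and blood was taken by cardiac puncture 24 h later into a PAXgene solution that stabilizes RNA, with globin transcripts reduced before labelling. Each of the 4 groups has 5 arrays, listed as 1 per mouse, and the comparisons ask how the genotypes differ without and with exposure, how each responds to 7 Gy, and whether these responses differ. Levels are log2 signals relative to the median probe of the same array, so that a difference of 1 is 2-fold, and values in a row are replicates 1 to 5 of a group in that order.

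Neutrophils are short-lived phagocytes that leave the bone marrow under granulocyte colony-stimulating factor, circulate in blood and enter inflamed tissue along gradients of chemokines and formylated peptides. Their cytoplasm is rich in calprotectin, and when activated they release proteases and reactive oxygen and can extrude chromatin as extracellular traps. Interleukin 10, the product of Il10, is an anti-inflammatory cytokine, and mice without it develop spontaneous colitis in which neutrophils take part.

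The targeted gene was read first. On the unirradiated mice labelled WT, the Il10 probe gave -1.85, -2.01, -1.72, -1.06 and -1.07, and on the irradiated ones -2.34, -2.64, -1.63, -1.30 and -1.35. On the mice labelled Il10-/- it gave 2.72, 2.999, 2.41, 2.49 and 3.11 without exposure and 1.94, 2.18, 2.86, 3.29 and 3.26 after 7 Gy. All 10 arrays labelled WT were not well above background, and all 10 labelled Il10-/- were, so the signal went against what the labels would give for a transcript that is absent. The difference was at least 7.12-fold at 0 Gy and at least 7.995-fold at 7 Gy. Such a bound is the brighter group's mean set against the mean, over the dim group's arrays, of the higher of the probe's value and the lowest level called well above background on that array. The probe begins at base 701 of the transcript, and whether the allele removes that stretch is not given in the sources used here, so it cannot check the deletion. The genotypes are therefore named as labelled, and every direction between them rests on the labels.

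Several arrays stand apart from the rest of their group, and calls that end without those of the unirradiated mice labelled WT are noted. With each array centred on its median, replicates 4 and 5 of the unirradiated mice labelled WT had the 2 lowest levels of their group for all 10 genes. They also lie apart over all probes: the robust SD of log2 differences was 0.219 to 0.309 among replicates 1 to 3 of that group and 0.670 to 1.26 in pairs that hold replicate 4 or 5. Some pairs of other groups lay within the latter range. Replicates 1 and 2 of the irradiated mice labelled WT differed from replicates 3 to 5 by 0.674 to 0.845. Replicates 4 and 5 of the unirradiated mice labelled Il10-/- were at 0.857. Replicate 5 of the unirradiated mice labelled WT had the weakest signal of the 20 arrays, with 29.9% of spots well above background against 34.6% to 57.8% on the others. It also had the widest spread between repeated spots, with an SD of 0.338 against 0.0849 to 0.211. Its level depends on the scaling. Scaling to 1 reference array in place of the array median would raise it by 1.12, relative to the median shift of the 20 arrays. On the others that shift ran from -0.22 to 0.30. For some of the 10 genes its place among the lowest of its group therefore rests on median centring. Replicate 4 of the irradiated mice labelled Il10-/- was the highest of its group for 9 of the 10 genes, all but Padi4, and replicate 5 of the unirradiated mice labelled Il10-/- for 9, all but Csf3r. In each group replicates 1 and 2 resembled each other more than other pairs did, with robust SDs of 0.183 to 0.270 against 0.289 to 1.26 in the 36 other pairs. Noise between hybridizations of 1 RNA was not measured, so these values cannot show whether the pairs come from separate mice, and the 5 arrays a group are counted as listed. With replicates 1 and 2 averaged, a choice made after seeing the data, 4 of the 10 genes were called at baseline in place of 5. The 20 arrays lie on 5 slides, each with the array of 1 replicate number from every group.

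The promoters of 4 of the genes are shown because they stand at the ends of the results: S100a8 and S100a9, which lie near each other on chromosome 3 and whose levels followed each other closely, Retnlg with the widest genotype difference, and Padi4, the gene called after irradiation. RefSeq's table for build GRCm38.p6 held promoters of 9 of the 10 genes, not Mmp9, and each line gives the 250 bases before the gene's start, 5′ to 3′ on the gene's strand. S100a8 is at chr3:90668821-90669070 on the plus strand, S100a9 at chr3:90695722-90695971 on the minus strand, Padi4 at chr4:140774204-140774453 on the minus strand and Retnlg at chr16:48872358-48872607 on the plus strand. Capitals mark matches, on either strand, to GAGGAA (core of the PU.1 motif), TTGCNNAA (C/EBP), TTCNNNGAA (STAT) or TATAAA, known as the TATA box.
S100a8: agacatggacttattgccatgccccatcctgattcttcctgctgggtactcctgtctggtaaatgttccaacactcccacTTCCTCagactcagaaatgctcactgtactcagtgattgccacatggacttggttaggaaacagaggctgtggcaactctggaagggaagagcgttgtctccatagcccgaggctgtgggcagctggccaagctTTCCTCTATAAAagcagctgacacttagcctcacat
S100a9: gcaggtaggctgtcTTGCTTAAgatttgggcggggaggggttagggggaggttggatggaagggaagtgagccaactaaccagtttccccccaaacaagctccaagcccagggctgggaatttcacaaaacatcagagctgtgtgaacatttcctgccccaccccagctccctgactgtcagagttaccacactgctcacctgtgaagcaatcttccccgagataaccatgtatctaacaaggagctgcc
Retnlg: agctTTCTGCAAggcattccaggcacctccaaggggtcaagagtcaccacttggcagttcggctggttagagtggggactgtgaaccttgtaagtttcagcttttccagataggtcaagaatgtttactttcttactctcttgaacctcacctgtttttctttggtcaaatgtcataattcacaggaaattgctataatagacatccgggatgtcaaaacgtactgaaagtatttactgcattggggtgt
Padi4: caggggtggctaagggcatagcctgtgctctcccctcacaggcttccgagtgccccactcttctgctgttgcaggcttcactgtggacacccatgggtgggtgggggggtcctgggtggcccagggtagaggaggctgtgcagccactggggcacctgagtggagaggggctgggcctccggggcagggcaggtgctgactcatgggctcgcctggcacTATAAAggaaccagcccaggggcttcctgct

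The TATA box letters begin 30 bases before the start of S100a8 and 31 before that of Padi4, and in S100a8 they directly follow a match to GAGGAA on the other strand, which begins 36 bases before the start. C/EBP letters were found 236 bases before the start of S100a9 and 246 before that of Retnlg. Among the 9 promoters, TATAAA was in 4 (S100a8, Padi4, Fpr1 and Fpr2), and in 12.4% of the 32851 mouse promoters of that length. GAGGAA was in 4 (Cxcr2, S100a8, Csf3r and Fpr2) and in 23.3% of all, TTGCNNAA in 2 (S100a9 and Retnlg) and in 9.56%, and TTCNNNGAA in 2 (Ncf1 and Fpr2) and in 7.02%. These matches describe letters in a window, and binding was not measured.

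The probes are 60 bases long, and a search for stretches of 14 bases shared with other probes set that of Csf3r apart. It shares such a stretch with probes of 9 other genes. The array files place this probe on chromosome 19 in build mm9, whereas RefSeq has Csf3r on chromosome 4, so its values are those of a probe that may read other transcripts. In each of the other 10 probes the most shared stretch was found in a probe of at most 1 other gene. The probes of S100a8, Fpr2, Ncf1 and Retnlg shared none. Probes of S100a8 and S100a9 lie at chr3:90473778-90473837 and chr3:90496573-90496632 in mm9, and that of Retnlg at chr16:48874468-48874527. The receptor probes lie at chr1:74206886-74206945 (Cxcr2), chr17:18013609-18013668 (Fpr1) and chr17:18030540-18030599 (Fpr2). Those of the enzymes lie at chr2:164780620-164780679 (Mmp9), chr5:134696380-134696439 (Ncf1) and, for Padi4, at chr4:140301675-140301734, the brighter probe, and chr4:140304002-140304061.

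Without irradiation, all 10 neutrophil genes had higher means in mice labelled Il10-/- than in mice labelled WT. The calprotectin subunits S100a8 and S100a9, the formyl peptide receptors Fpr1 and Fpr2 and the secreted protein Retnlg were called, 5 of the 10 genes, where 0.845% of the 18587 features were called higher. A feature was called at an unadjusted p under 0.001 in limma together with a false discovery rate (Benjamini-Hochberg) under 10%. For these 5 and for Cxcr2 and Mmp9, all 5 arrays labelled Il10-/- lay above all 5 labelled WT, which was so for 3.98% of features. The median difference of the 10 genes was 1.87 on the log2 scale, from 0.18 (Csf3r) to 2.88 (Retnlg), against 0.36 for all features. On these bulk blood arrays a higher share of neutrophils and more RNA per neutrophil cannot be told apart.

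The 5 calls depend on which arrays are kept: without replicate 4 of the unirradiated mice labelled WT limma called 0 of the 10 genes, at 2.71 for Retnlg, 2.24 for Fpr2, 2.19 for S100a8, 1.72 for Fpr1 and 1.66 for S100a9, and without replicate 5 it called all 5. Without replicates 4 and 5 together, a choice made after seeing the data, limma called 0 again. Without both, the differences were 2.14 for Retnlg, 1.71 for S100a8, 1.60 for Fpr2, 1.51 for Fpr1 and 1.45 for S100a9, and the median of the 10 genes was 1.36, with 0.05 for all features. Other scalings shift the median of all features from 0.36 to -0.07 (75th percentile), 0.01 (1 reference array), 0.11 (quantile) or 0.53 (normexp), and called 1, 3, 0 and 0 of the genes, with every gene that was tested higher in mice labelled Il10-/- under each of them except Csf3r at -0.17 (75th percentile) and -0.10 (1 reference array).

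**Figure D1:**
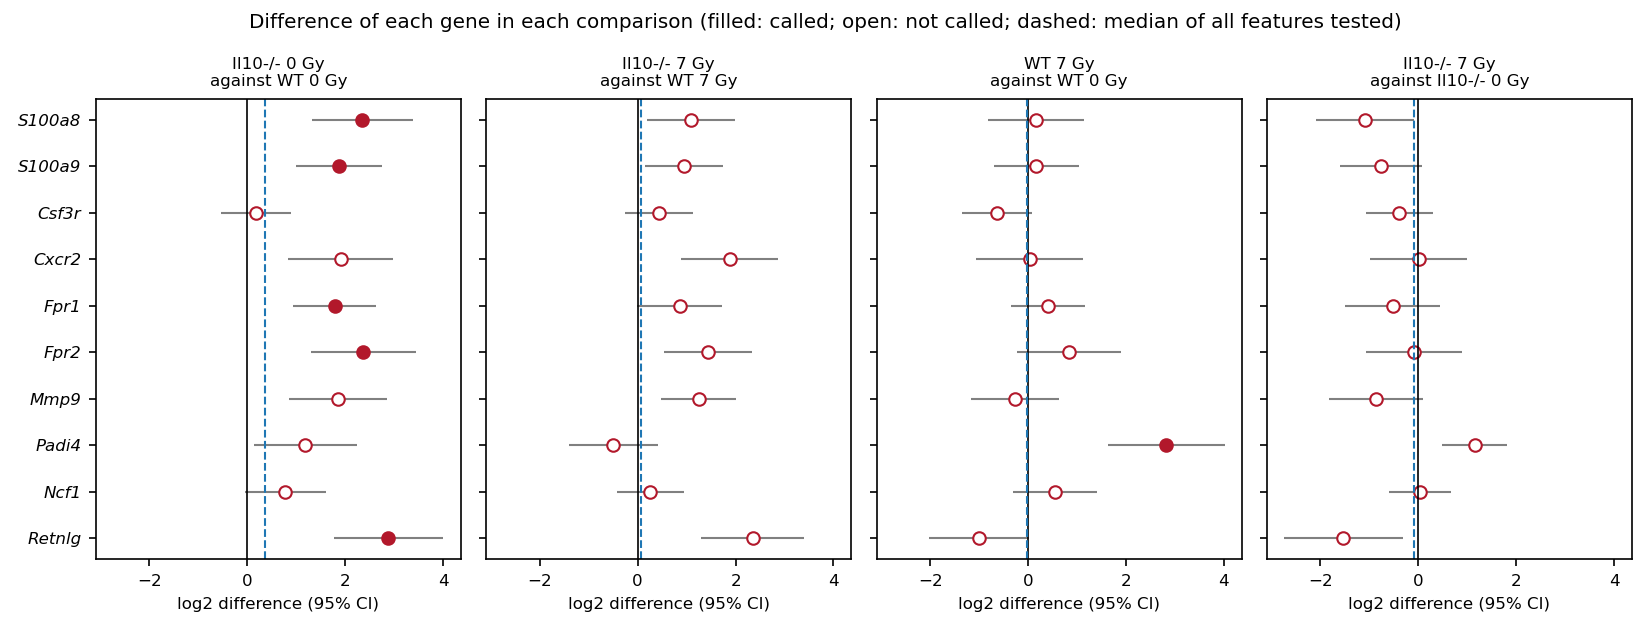
Difference of each gene in the 4 comparisons, on the log2 scale with its 95% confidence interval. Filled points were called, open ones not, and the dashed line is the median of all features: without irradiation all 10 points lie to the right of 0, with Csf3r, the lowest at 0.18, crossing to the left at -0.17 under scaling to the 75th percentile.

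S100a8 and S100a9 encode the subunits of calprotectin, a calcium- and zinc-binding protein that is among the main cytosolic proteins of neutrophils. S100a8 gave 10.703, 10.55, 9.54, 8.99 and 8.37 on the unirradiated arrays labelled WT and 12.29, 12.17, 11.55, 11.02 and 12.88 on those labelled Il10-/-. The groups did not overlap: the lowest array labelled Il10-/-, replicate 4 at 11.02, was above the highest labelled WT, replicate 1 at 10.703. The difference was 2.35 (SE 0.49), or 5.09-fold, with a limma adjusted p of 0.0417, and within slides it ran from 1.59 to 4.51, higher on 5 of 5. S100a9 gave 12.28, 12.41, 11.47, 10.75 and 11.19 on the unirradiated arrays labelled WT and 13.67, 13.59, 13.40, 12.74 and 14.10 on those labelled Il10-/-. Here too the groups did not overlap, with replicate 4 lowest in both. The difference was 1.88 (SE 0.42), or 3.68-fold, with a limma adjusted p of 0.0532, and within slides it ran from 1.18 to 2.91, higher on 5 of 5. Leaving out 1 array at a time kept the call of S100a9 in 4 of 10 cases and ended it in the other 6. Its difference was 1.84 without replicate 3 and 1.66 without replicate 4 of the mice labelled WT, and 1.84, 1.86, 1.91 and 1.73 without replicates 1, 2, 3 and 5 of those labelled Il10-/-. For S100a8, leaving out replicate 4 of the mice labelled WT was the case that ended the call, at 2.19. Across all 20 arrays the pair had a Pearson correlation of 0.980, and of 0.947 after group means were subtracted, a description over arrays that share groups.

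Fpr1 and Fpr2 encode receptors for formylated peptides of bacteria and mitochondria, which guide neutrophils to sites of infection and damage. Fpr1 gave 4.59, 4.76, 4.42, 4.06 and 3.77 on the unirradiated arrays labelled WT and 6.33, 6.36, 5.40, 5.48 and 6.95 on those labelled Il10-/-. The lowest array labelled Il10-/-, replicate 3 at 5.40, was above the highest labelled WT, replicate 2 at 4.76. The difference was 1.78 (SE 0.40), or 3.44-fold, with a limma adjusted p of 0.0579, and within slides it ran from 0.98 to 3.18, higher on 5 of 5. Its call ended in 5 of 10 cases, with 1.81 and 1.72 without replicates 3 and 4 of the mice labelled WT, and 1.73, 1.72 and 1.57 without replicates 1, 2 and 5 of those labelled Il10-/-. Fpr2 gave 4.09, 4.31, 3.67, 2.77 and 1.48 on the unirradiated arrays labelled WT and 5.98, 6.03, 4.76, 5.11 and 6.26 on those labelled Il10-/-. Replicate 5 labelled WT was not well above background and lay far below the others, and the groups did not overlap. The difference was 2.36 (SE 0.51), or 5.15-fold, with a limma adjusted p of 0.0484, and within slides it ran from 1.09 to 4.77, higher on 5 of 5. The call ended without replicate 4 of the mice labelled WT, at 2.24, and in no other of the 10 cases.

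Cxcr2 encodes the receptor for the neutrophil-attracting CXC chemokines and draws neutrophils out of the marrow. Cxcr2 gave 6.06, 5.82, 5.38, 4.36 and 3.23 on the unirradiated arrays labelled WT and 6.74, 6.66, 6.18, 6.99 and 7.81 on those labelled Il10-/-. The groups were apart by a narrow margin, 6.18 against 6.06, and replicate 5 labelled WT was not well above background. The difference was 1.90 (SE 0.51), or 3.74-fold, with a limma adjusted p of 0.127, and within slides it ran from 0.68 to 4.58, higher on 5 of 5. It was not called. Csf3r encodes the receptor for granulocyte colony-stimulating factor, which drives neutrophil production. Csf3r gave 9.39, 9.43, 9.35, 9.21 and 8.997 on the unirradiated arrays labelled WT and 9.44, 9.56, 9.22, 9.74 and 9.34 on those labelled Il10-/-. The groups overlapped in part, with 3 arrays labelled Il10-/- above all those labelled WT, and the spread within each group was narrow. The difference was 0.18 (SE 0.34), or 1.13-fold, with a limma adjusted p of 0.753, and within slides it ran from -0.13 to 0.53, higher on 4 of 5. It was not called, and its probe is the one with a stretch found in probes of 9 other genes.

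Mmp9 encodes gelatinase B, a protease stored in neutrophil tertiary granules. Mmp9 gave 3.65, 3.91, 3.67, 2.07 and 2.49 on the unirradiated arrays labelled WT and 5.20, 5.45, 3.94, 4.45 and 6.05 on those labelled Il10-/-. The groups touched closely, with 3.94 on replicate 3 labelled Il10-/- and 3.91 on replicate 2 labelled WT. The difference was 1.86 (SE 0.48), or 3.63-fold, with a limma adjusted p of 0.107, and within slides it ran from 0.27 to 3.56, higher on 5 of 5. Its unadjusted p of 0.000993, by limma, was under the limit, but its adjusted p was not, so it was not called. Padi4 encodes the peptidylarginine deiminase that citrullinates histones when extracellular traps form. Padi4 gave 4.85, 4.71, 4.77, 3.23 and 2.09 on the unirradiated arrays labelled WT and 5.01, 5.06, 5.07, 4.77 and 5.67 on those labelled Il10-/-. Replicates 1 to 3 labelled WT lay close to the arrays labelled Il10-/-, replicates 4 and 5 were far lower, and replicate 5 was not well above background. The difference was 1.18 (SE 0.50), or 2.27-fold, with a limma adjusted p of 0.278, and within slides it ran from 0.16 to 3.58, higher on 5 of 5. It was not called, nor was its dimmer probe, at 0.75 on the log2 scale (SE 0.48).

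Ncf1 encodes p47phox, the organizing subunit of the phagocyte NADPH oxidase. Ncf1 gave 4.86, 5.13, 4.64, 3.72 and 3.93 on the unirradiated arrays labelled WT and 5.37, 5.49, 4.69, 5.10 and 5.51 on those labelled Il10-/-. The highest WT array, replicate 2, was within the range of those labelled Il10-/-, and replicates 4 and 5 labelled WT were the lowest of the 10. The difference was 0.78 (SE 0.39), or 1.71-fold, with a limma adjusted p of 0.324, and within slides it ran from 0.05 to 1.59, higher on 5 of 5. It was not called. Retnlg encodes a resistin-like protein secreted by myeloid cells. Retnlg gave 8.78, 8.68, 7.92, 7.04 and 6.18 on the unirradiated arrays labelled WT and 10.999, 10.96, 9.61, 9.80 and 11.64 on those labelled Il10-/-. Retnlg had the widest gap between groups of the 10 genes, with the lowest array labelled Il10-/-, replicate 3 at 9.61, above the highest labelled WT, replicate 1 at 8.78. The difference was 2.88 (SE 0.53), or 7.37-fold, with a limma adjusted p of 0.0198, and within slides it ran from 1.69 to 5.46, higher on 5 of 5. Its call ended without replicate 4 of the mice labelled WT, at 2.71 with a limma adjusted p of 0.104, and in no other of the 10 cases. Of the 5 genes not called, Mmp9, Cxcr2, Padi4, Ncf1 and Csf3r differed by 1.27, 1.12, 0.34, 0.35 and 0.07 without replicates 4 and 5 labelled WT, and Padi4 by 0.73 without replicate 5.

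**Figure D2:**
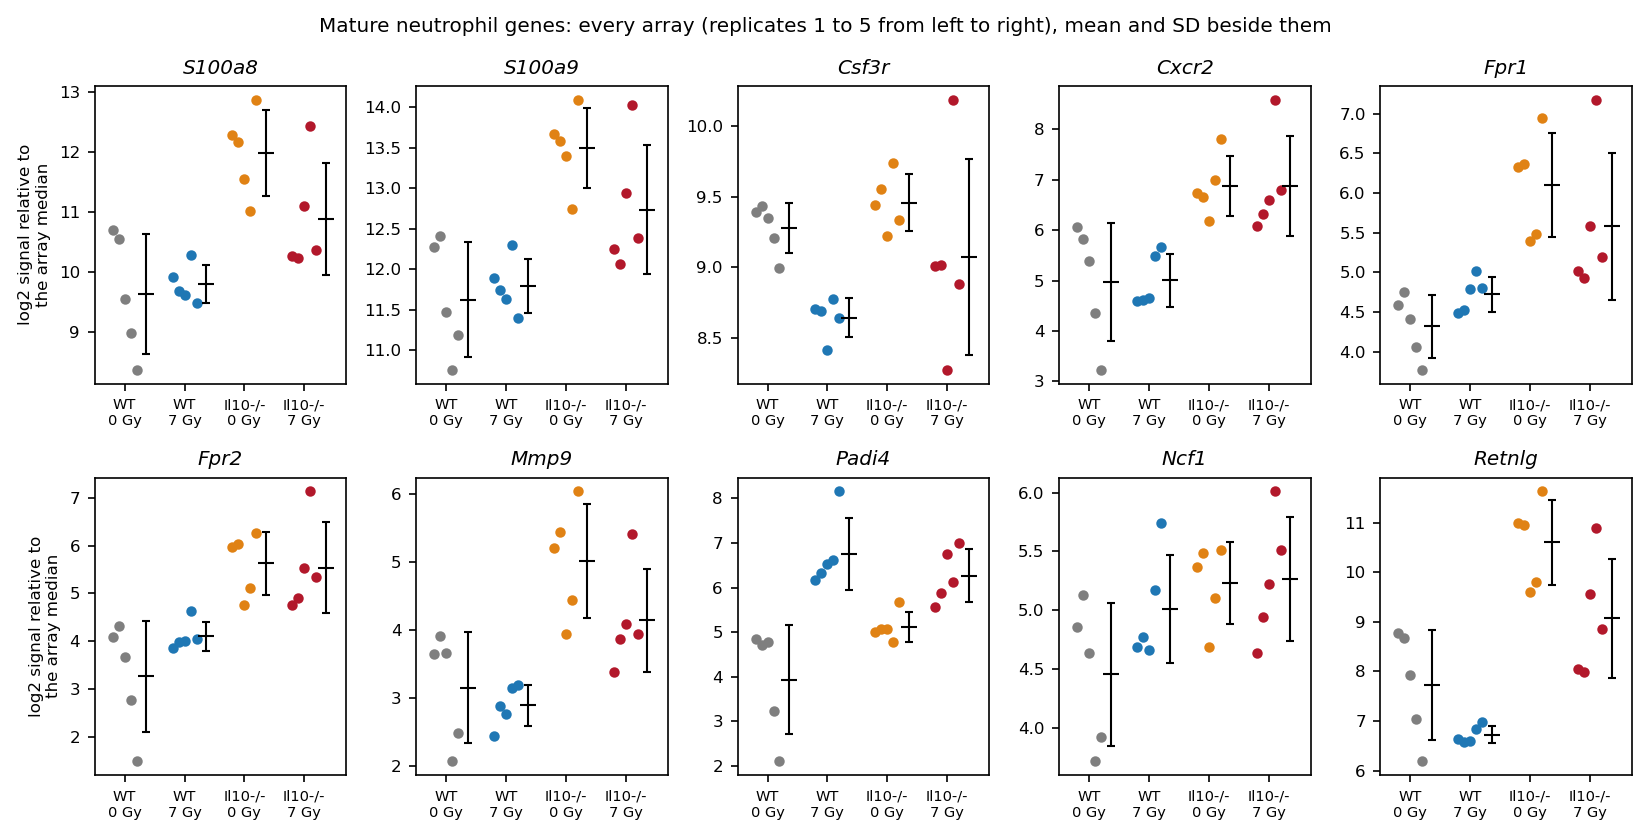
Log2 signal of each gene relative to the array median on every array, replicates 1 to 5 from left to right in each group, with the mean and SD beside them. Replicates 4 and 5 of the unirradiated mice labelled WT are the 2 lowest of their group in all 10 panels, and the Padi4 panel has the widest step after 7 Gy in mice labelled WT, from a mean of 3.93 to 6.76.

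After 7 Gy the genes were still mostly higher in mice labelled Il10-/-, yet 0 of the 10 were called by limma, where 0.00538% of features, 1 of 18587, were. The median difference was 1.02, against 0.08 for all features, 9 of the 10 genes were higher, and 6 had an unadjusted p under 0.05, as did 2066 features. For 4 genes, Retnlg, Cxcr2, Fpr2 and Mmp9, all 5 arrays labelled Il10-/- lay above all 5 labelled WT, which was so for 2.24% of features. Normexp background correction moved the median of the 10 genes to 0.14 and that of all features to -0.50, and turned Fpr1 (-0.06), Csf3r (-0.44) and Ncf1 (-0.48) to lower. The median of all features was -0.03 with the 75th percentile and -0.10 with quantile normalization.

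On the irradiated arrays Retnlg gave 6.63, 6.57, 6.60, 6.84 and 6.98 with the WT label and 8.04, 7.997, 9.57, 10.88 and 8.86 with the Il10-/- label. The arrays labelled WT were within a narrow band, and replicate 4 labelled Il10-/- was the highest by a wide margin. Its difference was 2.35 (SE 0.48, 5.09-fold, limma adjusted p of 0.314), higher on 5 of 5 slides. The unadjusted p from limma was 0.000446, under 0.001, but the false discovery rate was above 10%. On the irradiated arrays Cxcr2 gave 4.60, 4.62, 4.65, 5.48 and 5.67 with the WT label and 6.09, 6.33, 6.61, 8.59 and 6.80 with the Il10-/- label. Replicate 4 labelled Il10-/- again stood well above the other 4. Its difference was 1.88 (SE 0.45, 3.68-fold, limma adjusted p of 0.314), higher on 5 of 5 slides. On the irradiated arrays Fpr2 gave 3.85, 3.98, 4.01, 4.64 and 4.04 with the WT label and 4.76, 4.91, 5.54, 7.14 and 5.33 with the Il10-/- label. The lowest array labelled Il10-/-, 4.76, was just above the highest labelled WT, 4.64. Its difference was 1.43 (SE 0.41, 2.70-fold, limma adjusted p of 0.355), higher on 5 of 5 slides. On the irradiated arrays Mmp9 gave 2.45, 2.89, 2.78, 3.16 and 3.20 with the WT label and 3.39, 3.88, 4.10, 5.41 and 3.94 with the Il10-/- label. The groups did not overlap here either, at 3.39 against 3.20. Its difference was 1.25 (SE 0.35, 2.38-fold, limma adjusted p of 0.343), higher on 5 of 5 slides. Without replicate 4 labelled Il10-/- at 7 Gy the differences were 1.89 for Retnlg, 1.45 for Cxcr2, 1.03 for Fpr2 and 0.93 for Mmp9, and under normexp 1.43, 0.91, 0.42 and 0.21.

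S100a8 after 7 Gy read 9.91, 9.68, 9.62, 10.29 and 9.49 in mice labelled WT and 10.27, 10.24, 11.10, 12.44 and 10.37 in those labelled Il10-/-. The lowest arrays labelled Il10-/-, replicates 1 and 2, were just under the highest labelled WT, replicate 4, and the groups overlapped. This is a difference of 1.09 (SE 0.41, 2.12-fold, limma adjusted p of 0.402), with 5 of 5 slides higher. S100a9 after 7 Gy read 11.90, 11.74, 11.63, 12.30 and 11.39 in mice labelled WT and 12.25, 12.07, 12.94, 14.03 and 12.38 in those labelled Il10-/-. As with its partner, replicate 4 was the highest in both groups. This is a difference of 0.94 (SE 0.37, 1.92-fold, limma adjusted p of 0.403), with 5 of 5 slides higher. Fpr1 after 7 Gy read 4.49, 4.53, 4.795, 5.02 and 4.804 in mice labelled WT and 5.02, 4.93, 5.59, 7.18 and 5.20 in those labelled Il10-/-. The overlap was slight, with replicate 2 labelled Il10-/- under replicate 4 labelled WT. This is a difference of 0.86 (SE 0.40, 1.81-fold, limma adjusted p of 0.452), with 5 of 5 slides higher. The differences of S100a8, S100a9 and Fpr1 were 0.70, 0.62 and 0.46 without replicate 4 labelled Il10-/-, and the first 2 were 0.21 and 0.06 under normexp.

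Csf3r after 7 Gy read 8.70, 8.69, 8.41, 8.77 and 8.64 in mice labelled WT and 9.01, 9.02, 8.27, 10.19 and 8.88 in those labelled Il10-/-. Replicate 3 labelled Il10-/- was the lowest of the 10 arrays and replicate 4 the highest. This is a difference of 0.43 (SE 0.32, 1.35-fold, limma adjusted p of 0.609), with 4 of 5 slides higher. Ncf1 after 7 Gy read 4.69, 4.77, 4.66, 5.17 and 5.74 in mice labelled WT and 4.64, 4.95, 5.22, 6.01 and 5.51 in those labelled Il10-/-. These ranges lay almost on top of each other. This is a difference of 0.26 (SE 0.31, 1.20-fold, limma adjusted p of 0.778), with 3 of 5 slides higher. For Padi4 the sign was the other way: its probe gave 6.17, 6.32, 6.53, 6.61 and 8.17 in irradiated mice labelled WT and 5.56, 5.88, 6.76, 6.12 and 6.99 in those labelled Il10-/-. Replicate 5 labelled WT was far above the rest, and the groups overlapped. Padi4 differed by -0.50 (SE 0.41, limma adjusted p of 0.657), with 1 of 5 slides higher in mice labelled Il10-/-. It was -0.14 without replicate 5 labelled WT and -1.24 under normexp, and without replicate 4 labelled Il10-/- Csf3r and Ncf1 were 0.15 and 0.07.

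In mice labelled WT, 7 Gy was followed by a rise in Padi4 and by no other call among the 10 genes, 1 higher and 0 lower by limma, where 4.48% of features were called higher. Its levels of 4.85, 4.71, 4.77, 3.23 and 2.09 at 0 Gy stood against those of 6.17, 6.32, 6.53, 6.61 and 8.17 at 7 Gy. All 5 irradiated arrays lay above all 5 unirradiated ones, as they did for 11.8% of features, and replicate 5 was the lowest of its group at 0 Gy and the highest at 7 Gy. The mean went from 3.93 ± 1.23 to 6.76 ± 0.81 (SD, n = 5), a difference of 2.83 (SE 0.57) or 7.10-fold, with a limma adjusted p of 0.00421 and a rise on 5 of 5 slides, from 1.32 to 6.07.

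The dimmer Padi4 probe gave 2.38, 2.61, 2.83, 1.16 and 0.37 at 0 Gy, replicates 4 and 5 not well above background, and 3.24, 3.71, 4.11, 3.96 and 5.56 at 7 Gy. It was also called, at 2.25 (SE 0.54, 4.76-fold, limma adjusted p of 0.0122), higher on 5 of 5 slides. Padi4 kept its call in all 10 cases in which 1 array was dropped, at 2.37 to 3.06. With replicates 4 and 5 at 0 Gy both left out it was 1.98, with an unadjusted p of 0.00142 by limma, and was not called, while Retnlg was then called lower, at -1.74 (limma adjusted p of 0.00222).

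The other 9 genes had differences from -0.996 to 0.84 in mice labelled WT, 6 of them higher, and 0 of these 9 had an unadjusted p under 0.05 in limma, against 29.1% of features. Retnlg, at 8.78, 8.68, 7.92, 7.04 and 6.18 without and 6.63, 6.57, 6.60, 6.84 and 6.98 with exposure, went from a wide spread (SD 1.11) to a narrow one (SD 0.18). Its difference was -0.996 (SE 0.48), lower on 4 of 5 slides, those of replicates 1 to 4, and 0.80 on the fifth. Csf3r was lower on all 5 irradiated arrays than on any unirradiated one, as were 4.26% of features, with 9.39, 9.43, 9.35, 9.21 and 8.997 against 8.70, 8.69, 8.41, 8.77 and 8.64, a difference of -0.63 (SE 0.33, limma adjusted p of 0.227) that was not called. Near 0 were S100a8 (0.17), S100a9 (0.17) and Cxcr2 (0.03), whose signs turn under other settings: scaled to the 75th percentile they were -0.06, -0.05 and -0.19. Fpr2 (0.84), Ncf1 (0.55), Fpr1 (0.41) and Mmp9 (-0.26) were not called. Over the 10 genes the median was 0.17, against -0.02 for all features, scaled to the 75th percentile it was -0.06 over the 9 tested, against -0.28, and without replicates 4 and 5 at 0 Gy -0.37, against -0.18. Under normexp background correction it was 0.82 against 0.65, and Retnlg (0.34), Mmp9 (0.09) and Csf3r (0.28) turned to higher. Of all calls in this response 65.9% were higher, against 51.1% (75th percentile), 50.4% (quantile), 98.5% (normexp) and 28.7% without replicates 4 and 5 at 0 Gy, and the median of all features was -0.28 with the 75th percentile and -0.13 in the deposited table.

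In mice labelled Il10-/-, limma called 0 of the 10 genes after 7 Gy, where 9.16% of features were called in either direction, and 3 genes had an unadjusted p under 0.05, against 35.5% of features. Padi4 gave 5.01, 5.06, 5.07, 4.77 and 5.67 at 0 Gy and 5.56, 5.88, 6.76, 6.12 and 6.99 at 7 Gy, with replicate 5 highest in both groups and a slight overlap. The difference of 1.15 (SE 0.30, 2.22-fold) had a limma adjusted p of 0.0202 and was higher on 5 of 5 slides, and it missed the call because its unadjusted p, 0.00256, was above 0.001. The dimmer probe stood at 0.94 (SE 0.36), higher on 5 of 5 slides.

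Of the 10 genes, 7 had lower values in irradiated than in unirradiated mice labelled Il10-/-, without a call and with a median of -0.45, against -0.10 for all features. Retnlg went from 10.60 ± 0.86 to 9.07 ± 1.20 (SD, n = 5), a difference of -1.53 (SE 0.56, limma adjusted p of 0.0704), lower on 4 of 5 slides and higher on the fourth. S100a8 differed by -1.10 (SE 0.46, limma adjusted p of 0.111), lower on 4 of 5 slides, and S100a9 by -0.76 (SE 0.38). Mmp9 (-0.87), Fpr1 (-0.52) and Csf3r (-0.39) were on the lower side without a call. Fpr2 (-0.09), Cxcr2 (0.01) and Ncf1 (0.03) lay near 0, and all 3 change sign under a setting: Fpr2 was 0.06 when scaled to 1 reference array, and Cxcr2 and Ncf1 were -0.29 and -0.34 with normexp. Of all calls 35.9% were higher, against 50.5% with 1 reference array and 52.9% in the deposited table, where the median of all features was 0.14 and 0.19, and it was -0.32 with normexp.

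Tested directly in 1 fit of all 20 arrays, the difference between the responses, that of mice labelled Il10-/- minus that of mice labelled WT, was called for 0 of the 10 genes and for 0% of the 18587 features in limma, of which 1301 had an unadjusted p under 0.05. Padi4 had the lowest value, -1.68 (SE 0.68, limma adjusted p of 0.688), below 0 on 5 of 5 slides, from -4.75 to -0.07, and was the 1 gene with an unadjusted p under 0.05. S100a8 followed at -1.26, then S100a9, Fpr1 and Fpr2 at -0.93, -0.93 and -0.93. Mmp9 (-0.61), Retnlg (-0.54), Ncf1 (-0.52), Cxcr2 (-0.02) and Csf3r (0.25) lay closer to 0. The value of Padi4 was -0.83 without replicates 4 and 5 of the unirradiated mice labelled WT, and Retnlg and Cxcr2 were then 0.21 and 0.76. The median of all features, -0.20, was 0.12 with the 75th percentile, 0.08 with 1 reference array, 0.07 in the deposited table and -1.01 with normexp. The rise of Padi4 in one genotype and its missed call in the other are therefore not shown to differ.

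The mean of the 10 genes on each array shows how far the comparisons vary between slides. It was 6.93, 6.97, 6.48, 5.62 and 5.17 in unirradiated and 6.34, 6.38, 6.37, 6.83 and 6.81 in irradiated mice labelled WT. In mice labelled Il10-/- it was 8.10, 8.13, 7.38, 7.52 and 8.62 without and 6.90, 7.02, 7.57, 8.80 and 7.43 with exposure. The unirradiated arrays labelled Il10-/- were above those labelled WT of the same slide on all 5 slides, and so were the irradiated ones. Within slides 1 to 5, the mean of the genes differed between genotypes by 1.18, 1.16, 0.90, 1.90 and 3.45 at 0 Gy and by 0.56, 0.64, 1.20, 1.97 and 0.61 at 7 Gy. The responses had no single direction: within slides they were -0.59, -0.59, -0.12, 1.21 and 1.64 with the WT label and -1.20, -1.11, 0.19, 1.28 and -1.19 with the Il10-/- label. Slides 1 and 2 gave almost equal values in each comparison, and the widest genotype difference at 0 Gy, on the fifth, holds the array of weakest signal. That array is replicate 5 of the unirradiated mice labelled WT. Scaling to 1 reference array would raise it by 1.12, relative to the median shift of all arrays. The genotype difference at 0 Gy and the WT response on the fifth slide therefore rest partly on median centring. So do the values of single genes within that slide that use this array. With the slide as a block in limma, 7 genes and 2.07% of features were called at baseline, with Mmp9 and Cxcr2 added, and 1, 0, 0 and 0 in the WT response (8.75% of features), the Il10-/- response (6.94%), the irradiated comparison (0%) and the difference between responses (0%). Leaving the fifth slide out, a choice made after seeing the data, gave 0 calls among the 10 genes at baseline in limma and 60 among all features.

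**Figure D3:**
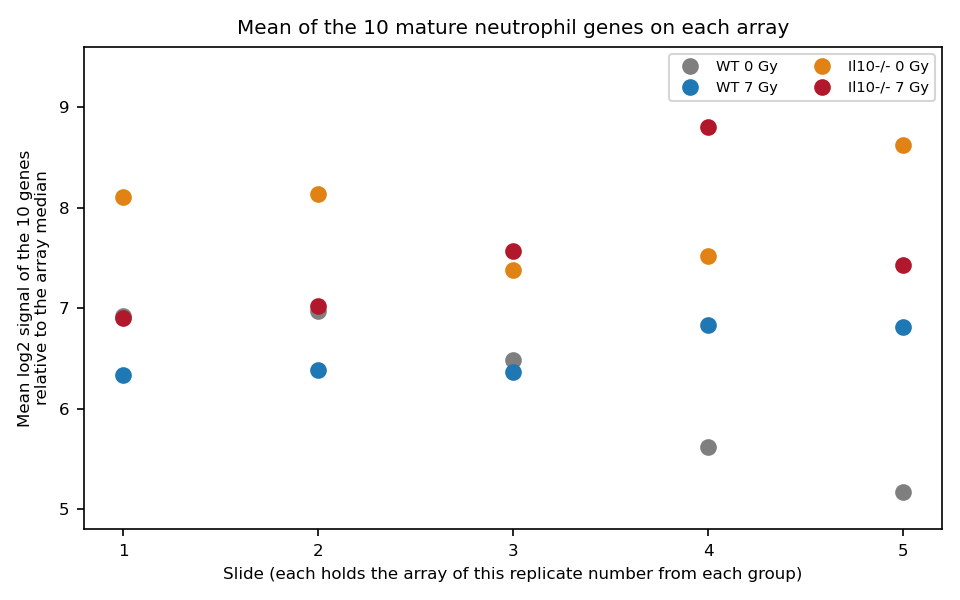
Mean log2 signal of the 10 genes on each array, by slide, with 1 point per group. On all 5 slides the unirradiated array labelled Il10-/- is above the unirradiated one labelled WT, by 0.90 to 3.45, whereas the irradiated arrays lie above or below the unirradiated ones of the same label depending on the slide. The 3.45 is that of the fifth slide and rests partly on median centring.

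Other transcripts typical of mature neutrophils had medians near those of the 10 genes. Of 24 listed, 22 were tested, and 12 were called higher in unirradiated mice labelled Il10-/-, with a median of 1.66, among them the stefin Stfa1 at 3.05 (SE 0.51, limma adjusted p of 0.0121, all 5 arrays above all 5) and the collagenase Mmp8 at 2.77 (SE 0.57, limma adjusted p of 0.0348, all 5 above all 5). Of these 12, 8 stayed called without replicate 4 of the unirradiated mice labelled WT, 9 without replicate 5 and 2 without both, when the median was 1.21, with Stfa1 at 2.76 and Mmp8 at 2.34 not called, and Mmp8 was not called without either array alone, at 2.68 and 2.54. At 7 Gy the median was 1.05 with 0 calls in limma. In mice labelled WT, 3 of the 22 rose after 7 Gy, Lrg1 by 2.58 and Slpi by 2.44 among them (Lrg1 at 2.04 and not called without replicates 4 and 5 at 0 Gy), with a median of 0.49, and in mice labelled Il10-/- the median was -0.23. Their mean on each array had a correlation of 0.967 with that of the 10 genes over the 20 arrays, and of 0.970 after group means were subtracted. Ly6g, a defining neutrophil surface marker, has no probe under that name.

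Genes of neutrophil precursors, which fill the granules as the cells form in the marrow, held calls at baseline and after irradiation. Of 10 tested, 5 were called higher in unirradiated mice labelled Il10-/-, with a median of 2.02, among them lactoferrin, Ltf, and Ngp, which were well above background on 2 and 1 of the 5 arrays labelled WT and on all 5 labelled Il10-/-, so that no size is given. Without replicate 4 of the unirradiated mice labelled WT 4 of these 5 stayed called, as they did without replicate 5, and 1, Ltf, without both, when the median was 1.47. Their per-array mean was 2.72, 2.73, 2.67, 3.31 and 1.54 in unirradiated mice labelled WT and 5.29, 5.31, 3.63, 3.84 and 5.92 in those labelled Il10-/-. After 7 Gy it was 2.02, 1.95, 2.93, 2.92 and 2.80 with the WT label and 2.50, 2.50, 3.85, 4.000 and 3.43 with the Il10-/- label. In the latter 2 of 10 fell, the chitinase-like Chi3l3 by 3.91 and myeloperoxidase, Mpo, which was at least 1.85-fold lower, with a list median of -1.75 beside -0.45 for the 10 mature genes. In mice labelled WT Prtn3 rose, from 2 to 5 of 5 arrays well above background, Chi3l3 fell by 2.63, both also without replicate 4, replicate 5 or both at 0 Gy, and the median was 0.03. The correlation with the mean of the 10 genes was 0.816 over the arrays and 0.682 within groups.

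Partners of the 10 genes in their pathways were read list by list. Among all features, 0.845% were called at baseline, 6.8% in the WT response and 9.16% in the Il10-/- response. Of the 7 subunits and GTPases that form the NADPH oxidase with Ncf1, 0 were called by limma in any comparison, with baseline differences around a median of 0.81. Among 7 other chemoattractant receptors, the leukotriene receptor Ltb4r1 was higher at baseline (1.75, SE 0.43, limma adjusted p of 0.0869), the complement receptor C3ar1 rose after 7 Gy in mice labelled WT, from 2 to 5 of 5 arrays well above background, and Cxcr4, which retains neutrophils in marrow, fell by 1.53 there and by 1.89 in mice labelled Il10-/-. Of the ligands, 3 of 7 were tested: Anxa1, whose product acts on the formyl peptide receptors, was higher at baseline (1.81, SE 0.45), and Csf3, Cxcl1, Cxcl3 and Cxcl5 did not pass the filter on background. Of 8 adhesion molecules 0 were called by limma, with a baseline median of 0.75, and of 10 genes of Csf3r signaling and granulocyte transcription Cebpa alone was called, up 2.36 after 7 Gy in mice labelled WT. Of 8 other S100 genes S100a1 rose in both genotypes, by 2.02 with the WT label and 1.59 with the Il10-/- label. Of 3 other resistin-like genes Retnla rose by 2.15 in mice labelled Il10-/-. Of 2 metalloproteinase inhibitors tested, both rose in mice labelled WT, Timp3 from 2 to 5 of 5 arrays well above background and Timp2 by 2.06, and Timp2 by 1.34 in mice labelled Il10-/-. Several of these calls end without replicate 4, replicate 5 or both of the unirradiated mice labelled WT. Ltb4r1 and Anxa1 were then not called in any of the 3 cases, at 1.29 and 1.24 without both. In the WT response C3ar1 and Cebpa were not called without both (Cebpa at 1.74), nor Cebpa and Cxcr4 without replicate 4, at 2.26 and -1.55. Timp2 was not called in any of the 3 cases, at 1.33 without both. Calls were gained in the WT response too: 1 adhesion molecule without replicate 4 and 1 without both, 1 chemoattractant receptor without replicate 5 and without both, and 1 gene of Csf3r signaling without both. The calls of Timp3 and S100a1 there stayed in all 3 cases. The calprotectin receptor Tlr4 and the 3 other peptidylarginine deiminases tested had 0 calls in limma. In the difference between responses limma called 0 genes of any list.

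Markers of other cells in blood moved with some of these results, and their part in the differences of the 10 genes was not tested. Monocyte markers, whose mean correlated with that of the 10 genes at 0.793 over 20 arrays and 0.760 within groups, were at 6.25, 6.18, 6.09, 4.86 and 4.59 in unirradiated mice labelled WT and 6.54, 6.65, 5.73, 6.34 and 6.50 in those labelled Il10-/-. After 7 Gy the monocyte mean was 5.27, 5.37, 5.48, 5.78 and 6.23 with the WT label and 5.71, 5.73, 5.84, 5.93 and 6.000 with the Il10-/- label. As for the 10 genes, replicates 4 and 5 were the lowest unirradiated arrays labelled WT. Of 4 tested, 0 were called between genotypes in limma, and after 7 Gy Emr1 rose and Cx3cr1 fell with both labels, and Ccr2 fell in mice labelled Il10-/-. In mice labelled WT both calls stayed without replicate 4, replicate 5 or both at 0 Gy, and 1 more was called without both. Csf1r, the most abundant of the list, had group means of 8.12 to 8.52, and Ly6c2 has no probe under that name.

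The means of 7 platelet markers, of which Pf4 is the most abundant, were 8.41, 8.42, 8.22, 8.61 and 6.95 and 10.17, 10.28, 7.82, 7.47 and 9.89 at 0 Gy in mice labelled WT and Il10-/-, and correlated with those of the 10 genes at 0.611 over arrays and 0.649 within groups. At 7 Gy they were 8.76, 8.91, 9.42, 9.81 and 9.85 and 9.91, 10.05, 10.18, 10.91 and 10.40, with 0 of 7 called by limma in any comparison. B cell markers fell after 7 Gy in both genotypes, 5 of 6 in each, with medians of -2.94 and -3.62, and their mean had a correlation of 0.0102 with that of the 10 genes over arrays and 0.430 within groups. Among 6 T cell markers Cd8a fell in both, from all 5 arrays well above background to 1 with the WT label and 2 with the Il10-/- label, and the mean of 8 such markers correlated with that of the 10 genes at 0.637 over arrays and 0.497 within groups. Of 6 NK cell markers 0 were called by limma. Among erythroid markers Slc4a1 fell in both and Epor rose in mice labelled WT, and of 4 eosinophil, basophil and mast cell markers Cpa3 rose in both and Il5ra fell in mice labelled Il10-/-. In mice labelled WT the calls of B cell markers, Cd8a, Slc4a1, Epor and Cpa3 stayed without replicate 4, replicate 5 or both at 0 Gy, and in the list of 4 that holds Cpa3 1 more was called without replicate 5 and 2 more without both.

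Liver transcripts varied widely between arrays of a group, and their part was not tested either: the mean of 7 was 2.46, 2.53, 1.10, 1.37 and 0.06 and 2.91, 2.79, 8.40, 9.61 and 2.75 at 0 Gy in mice labelled WT and Il10-/-. At 7 Gy it was 11.31, 11.34, 8.61, 3.36 and 5.85 and 9.47, 9.54, 1.72, 8.43 and 5.12. The list held 2 calls at baseline (Alb and Hpx) and 4 after 7 Gy in mice labelled WT, with medians of 4.48 and 7.64. Alb and Hpx were well above background on 2 and 1 of the 5 unirradiated arrays labelled WT. The medians of both comparisons therefore rest partly on background. Without replicates 4 and 5 of the unirradiated mice labelled WT, 0 of the liver calls by limma were left, though the medians were 4.001 and 7.16. Leaving out replicate 4 alone or replicate 5 alone left 0 of the 2 baseline calls, and 4 and 3 of those in the WT response. Its correlation with the mean of the 10 genes was 0.0717 over arrays and -0.250 within groups, and Apoa1 was well above background on 0 of 5 unirradiated arrays labelled WT. For 5 heart muscle transcripts, all 5 of which were called higher in irradiated mice labelled Il10-/-, these correlations were -0.0401 and -0.0710. Their median difference was 5.84 there, and the groups overlapped for Myh6 and Myl2. In the WT response it was 3.63, with 0 calls in limma. Heart muscle transcripts too varied widely between arrays, with an SD of their mean of 1.43 to 3.93 in the 4 groups. Between the mean of the 10 genes and array quality, the correlation was 0.227 for the percent of spots well above background and -0.490 for the SD between repeated spots.

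**Figure D4:**
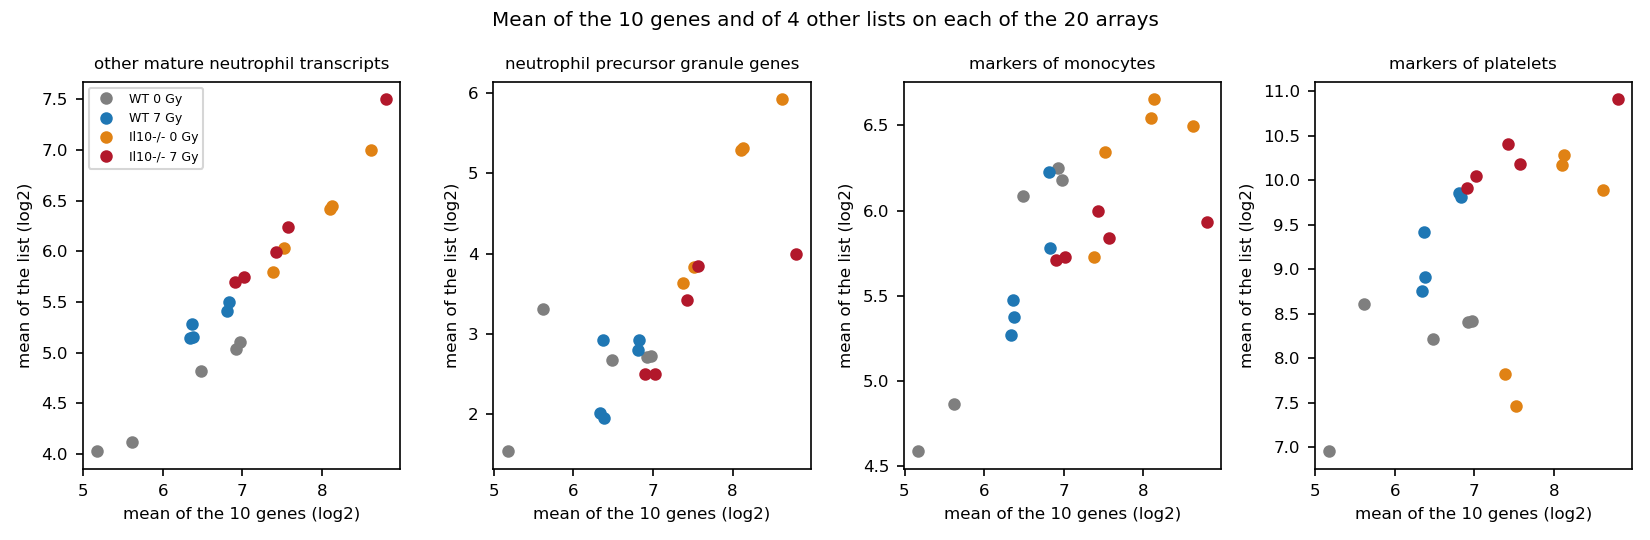
Mean of the 10 genes against the mean of 4 other lists on each of the 20 arrays, in log2 signal, with 1 colour per group. The other mature neutrophil transcripts follow the 10 genes closely (correlation of 0.967), and the precursor granule genes, monocyte markers and platelet markers less so (0.816, 0.793 and 0.611).

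Padi4 was tied less closely to the other 9 genes over the 20 arrays than most of these were to each other, and more closely within groups. Over the arrays it correlated with Ncf1 at 0.670 and Fpr2 at 0.474, with S100a8 at 0.191, Retnlg at 0.0130 and Csf3r at -0.421, whereas Retnlg and Mmp9 correlated at 0.954. After group means were subtracted, Padi4 correlated with Ncf1 at 0.739, Cxcr2 at 0.702, Retnlg at 0.623 and Fpr2 at 0.604, and with Csf3r at 0.00881. Csf3r correlated with the 8 members other than Padi4 at 0.256 to 0.626 over the arrays and at 0.444 to 0.613 within groups. Likeness to the mean of the 10 was ranked over 18731 genes above background, by Pearson correlation over the 20 arrays. Outside the members, the most alike were an unnamed Ensembl transcript (0.979), Ppp1r3d (0.976), S100a11 (0.976), Pram1 (0.9747) and Socs3 (0.967). After group means were subtracted they were S100a11 (0.966), Ppp1r3d (0.965), the same transcript (0.964), Lcp1 (0.957) and Socs3 (0.953). None of these 6 was called in any comparison by limma, with baseline differences of 1.03 (Lcp1) to 1.60 (Pram1) and unadjusted p of 0.00115 (Pram1) to 0.0238 (Lcp1).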

How the data were processed

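Blood RNA of 20 samples, listed as 1 per mouse, was measured on single-colour Agilent arrays, with group and replicate read off the labels of the samples. The authors deposited the output of Feature Extraction (version 10.7 per the methods, 12.0.2.2 per the file headers), whose processed signal is a background-subtracted intensity that is not normalized between arrays. They also deposited a table of log2 values, used as an alternative: it holds 16866 of the probes and 9 of the 10 genes, not Ncf1, median normalized per the methods without naming the probes used. Its distance from the log2 intensity is near 1 constant per array, which matches scaling to 1 reference array within 0.00825: 99% of probes lie within 0.0235 of it on 18 arrays, and within 0.240 and 0.279 on the other 2. Its column medians are 5.21 to 6.76. For the results here the log2 of that intensity was taken, each probe got the mean of its spots that were not marked non-uniform, and every array was centred on its median over 39429 probes. Dropping probes that were non-uniform or not significantly positive on at least 25% of arrays left 22997, and dropping those with fewer than 20% of arrays at least 1.5-fold from their median left 18587.

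Each pairwise comparison was fitted in limma 3.58.1 (R 4.3.3, with data.table at version 1.17.8) on its own 10 arrays, and the difference between responses on all 20, with p-values adjusted over all features tested. Genes are shown by their brightest probe. Sequences, motifs and figures were handled in Python 3.11.15 with pandas 2.3.3, numpy 2.4.6 and matplotlib 3.10.9, and the scripts were tested on simulated data. The members and gene lists were chosen with earlier results of these data known. Named genes are the 10 members and Il10, and at most 2 called rises and 2 called falls of each other list in a comparison. Also named are the 5 genes outside the members most correlated with the members' mean over arrays and within groups. Csf1r and Pf4 were added as the most abundant of their lists, and Apoa1, Ly6c2, Ly6g, Tlr4 and the ligands below background as absent or single entries. Alternatives were the 75th percentile, 1 reference array, quantile normalization, normexp with an offset of 50, the deposited table, no 1.5-fold filter, no filter, all groups in 1 fit, the replicate block, a rate under 5% alone, probes of a gene averaged and each array left out, and, chosen after seeing the data, replicates 1 and 2 averaged, the fifth slide left out, replicates 4 and 5 of the unirradiated mice labelled WT left out (alone and together for the other lists) and Csf3r left out.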

Additional observations from a re-analysis of the deposited data

Results flagged for a closer look

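In 3 of 44 groups of 5 arrays, 1 array stood far from the others: its gap to the nearest array, divided by the whole range of the group, was above 0.71. Chance flags about 1 in 20 groups. Cxcr2 in irradiated mice labelled Il10-/- had replicate 4 highest, at 8.59 against 6.80 for the next, a ratio of 0.715. Fpr2 in irradiated mice labelled WT also had replicate 4 highest, at 4.64 against 4.04, a ratio of 0.767. Padi4 in irradiated mice labelled WT had replicate 5 highest, at 8.17 against 6.61, a ratio of 0.780, and without that array its difference in the WT response was 2.48 and still called by limma.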

How the results depend on the processing

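The baseline calls move most with the processing. Against 5 genes, limma called 1 with the 75th percentile (Retnlg), 3 with 1 reference array and 3 in the deposited table (S100a8, Fpr2 and Retnlg each time), 0 with quantile normalization, 0 with normexp, 1 with no filter (Retnlg), 3 at a rate under 5% alone, 0 without the fifth slide and 0 without replicates 4 and 5 of the unirradiated mice labelled WT (the pair of arrays). It called 5 without the 1.5-fold filter, 6 with all 4 groups in 1 fit, 5 with probes averaged, 4 with replicates 1 and 2 averaged and 5 without Csf3r. The averaging and the 3 sets left out (the fifth slide, the pair of arrays and Csf3r) were chosen after seeing the data. The pair was first picked because both arrays were the lowest of their group for all 10 genes under median centring. Its distance over all probes was looked at afterwards, so its values describe dependence on it and are no independent check. With 1 array left out the baseline count ran from 0 to 6: 0 without replicate 4 labelled WT, and 3 without replicate 3 labelled WT or replicate 1, 2 or 5 labelled Il10-/-, all at 0 Gy. In the WT response 1 gene was called under every alternative, Padi4 except without the pair of arrays, when it was Retnlg, lower. In the Il10-/- response 1 gene, Padi4, was called at a rate under 5% alone and 0 otherwise. The irradiated comparison and the difference between responses had 0 calls in limma under every alternative. Medians moved by more than the spread between replicates with normexp, to 0.82 in the WT response and 0.14 in the irradiated comparison, and the WT response median turned to -0.0596 with the 75th percentile and -0.37 without the pair of arrays, within that spread. With 1 array left out the medians ran over -0.0435 to 0.38 (WT response), -0.79 to -0.35 (Il10-/- response), 1.64 to 2.06 (baseline) and 0.66 to 1.18 (irradiated).

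At baseline 157 features were called, against 43 with the 75th percentile, 81 with 1 reference array, 25 with quantile normalization, 0 with normexp in limma (80 at an unadjusted p under 0.05), 62 in the deposited table, 66 with no filter, 76 at a rate under 5% alone, 60 without the fifth slide, 20 without the pair of arrays, and 47 and 100 without replicate 4 labelled WT or Il10-/- at 0 Gy. Baseline counts were higher with all groups in 1 fit, at 201, and with the replicate block, at 384. In the WT response 1263 were called, against 261 with normexp, 2119 with all groups in 1 fit, 2712 at a rate under 5% alone, 754 with replicates 1 and 2 averaged and 2030 without the pair of arrays. In the Il10-/- response 1702 were called, against 0 with normexp in limma (436 at an unadjusted p under 0.05), 4053 at a rate under 5% alone, 815 with replicates 1 and 2 averaged and 1133 without replicate 1 at 0 Gy.

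Signs of single genes that were not called turned in these cases, and the cause was not tested. With the 75th percentile, S100a8 (-0.0596), S100a9 (-0.0549) and Cxcr2 (-0.19) turned in the WT response, Csf3r (-0.17) at baseline and Cxcr2 (0.23) in the difference between responses. With 1 reference array and in the deposited table, Cxcr2 was -0.0552 and -0.0534 in the WT response, Fpr2 0.0553 and 0.0517 in the Il10-/- response, Csf3r -0.10 and -0.10 at baseline, and Cxcr2 0.21 and 0.20 in the difference. Quantile normalization gave Cxcr2 -0.36 in the WT response, and Retnlg 0.0802 and Cxcr2 0.44 in the difference. Normexp gave Retnlg 0.34, Mmp9 0.0866 and Csf3r 0.28 in the WT response, Cxcr2 -0.29 and Ncf1 -0.34 in the Il10-/- response, Fpr1 -0.0614, Csf3r -0.44 and Ncf1 -0.48 in the irradiated comparison, and Csf3r -0.93 in the difference. Averaging replicates 1 and 2 gave Fpr2 0.18 in the Il10-/- response. Without the fifth slide, S100a8 (-0.0730) and Cxcr2 (-0.57) turned in the WT response, Fpr2 (0.12) in the Il10-/- response, and Retnlg (0.22) and Cxcr2 (0.83) in the difference. Without the pair of arrays, S100a8 (-0.47), S100a9 (-0.26) and Cxcr2 (-0.75) turned in the WT response, and Retnlg (0.21) and Cxcr2 (0.76) in the difference. With 1 array left out, signs turned within -0.15 to 0.43 (S100a8), -0.0459 to 0.37 (S100a9) and -0.40 to 0.30 (Cxcr2) in the WT response, -0.42 to 0.24 (Cxcr2), -0.49 to 0.10 (Fpr2) and -0.15 to 0.19 (Ncf1) in the Il10-/- response, and -0.45 to 0.41 (Cxcr2) and -0.0301 to 0.45 (Csf3r) in the difference. Of the 720 values of single genes under alternatives other than leaving out 1 array, 643 kept sign and call, 36 lost a call and 5 gained one, and of 1000 with 1 array left out, 956, 14 and 3. Ncf1 was not tested with the 75th percentile, 1 reference array or the deposited table, and quantile normalization tested 8 of the genes.

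The replicate number is shared across groups and marks the slide. Deviations of same-numbered arrays from their group means correlated at -0.66 to 0.68, and 0 of 6 pairs of groups had all 5 values above 0.1. Between unirradiated and irradiated mice labelled WT the values of replicates 1 to 5 were 0.25, 0.31, 0.17, 0.32 and 0.06. Between the irradiated groups they were 0.66, 0.68, 0.14, -0.02 and 0.61. Same-numbered arrays were thus alike in some pairs of groups and not in others. With the replicate block limma called 384 features (2.07%) and 7 genes at baseline (Cxcr2 and Mmp9 added), 1 in the WT response and 0 in the Il10-/- response, the irradiated comparison and the difference between responses. Signal over background limits the dim values: on replicate 5 of the unirradiated mice labelled WT, 29.9% of spots were well above background, and Cxcr2, Fpr2 and both Padi4 probes were not, so their differences from that group rest partly on background. The 5 arrays a group limit precision.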
